A study of Schizosaccharomyces pombe with 6 samples.

Results

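Heat shock chaperones fold new proteins, keep stressed proteins from aggregating and pull aggregates apart. Many of their genes are highly transcribed in growing yeast, and heat shock factor raises them further under stress through repeated short elements in their promoters. Described here are 7 such genes of fission yeast (Schizosaccharomyces pombe), out of 5113 protein-coding genes on chromosomes I to III. They were chosen by name or synonym in the ASM294v3 annotation, and all 7 were found. The genes ssa1 and ssa2 code for Hsp70 chaperones of the cytosol, sks2 for a ribosome-associated Hsp70, and bip1 for the Hsp70 of the endoplasmic reticulum. The gene hsp90 codes for Hsp90, mcp60 for the mitochondrial chaperonin Hsp60, and hsp104 for a disaggregase that works with Hsp70.

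The values come from chromatin immunoprecipitation and sequencing (ChIP-seq) with an antibody against the Pk epitope. The strains were Pli1-12Pk, which carries the tag on the SUMO ligase Pli1, Nse2-12Pk, with the tag on the SUMO ligase of the Smc5/6 complex, and a strain without a tag. All 3 were grown in rich medium to log phase and mixed before crosslinking with budding yeast cells of strain Ku70-cMyc as a calibrator. The sources used here name no further alleles and do not say whether a strain is 1 clone. Each strain has 1 ChIP library and 1 input among the 6 samples, so there are no replicates, no test between strains is possible, and all values are descriptions of these libraries.

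Each strain's ChIP file lists called regions by their ends, the authors' score and a summit, which is the base where the signal of the region peaks. The Pli1 list has 299 regions covering 99.3% of the genome, the Nse2 list 62 regions covering 99.8%, and the untagged list 3535 peaks covering 18.7%. Nearly every gene therefore lies inside a Pli1 and an Nse2 region, and the summit is what places tagged signal at a gene. Each region has a single summit, and the longest is 351192 bp for Pli1 and 1548631 bp for Nse2. A gene without a tagged summit can therefore still carry tagged signal, lower than that at the summit of its region. The scale of the score is not stated, so scores rank regions within a list and are not compared between lists. The sources used here do not give the sequencing depth of the libraries.

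The summits lay in the coding sequence. The stretches below show where the tagged summits fell, each in the direction of transcription, with the bases under the summits in capitals. Sequences and positions are those of RefSeq ASM294v3. All are exonic, coding, and free of introns. In ssa1 (chrI:2297277-2297376, minus strand) the first capital is the untagged summit and the second the Pli1 summit. In ssa2 (chrIII:2059056-2059165, plus strand) the capitals are the Nse2, untagged and Pli1 summits in that order. In sks2 (chrII:1107605-1107656, plus strand) and hsp90 (chrI:3888902-3888961, minus strand) they are the Pli1 and then the untagged summit, and in mcp60 (chrI:341451-341497, minus strand) the untagged and then the Nse2 summit.
ssa1: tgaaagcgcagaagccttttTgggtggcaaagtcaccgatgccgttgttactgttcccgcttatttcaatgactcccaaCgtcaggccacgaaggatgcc
ssa2: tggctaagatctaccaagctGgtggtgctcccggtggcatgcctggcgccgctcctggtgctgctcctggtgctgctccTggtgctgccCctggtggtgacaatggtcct
sks2: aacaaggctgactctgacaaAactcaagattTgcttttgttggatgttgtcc
hsp90: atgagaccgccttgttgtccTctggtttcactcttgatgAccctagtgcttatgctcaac
mcp60: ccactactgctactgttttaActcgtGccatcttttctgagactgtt

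Of the 7 genes, 4 had a Pli1 summit in or within 200 bp of the gene: ssa1, ssa2, sks2 and hsp90. Among all protein-coding genes the share was 4.6% (235 of 5113), and among the 1888 genes at least as long as the shortest of the 7, sks2 with 2116 bp, it was 5.67%. An Nse2 summit lay at 2 of the 7, ssa2 and mcp60, against 0.821% of all protein-coding genes. An untagged summit lay at all 7, against 54.1%. Untagged peaks touched all 7 genes by at least 1 bp, where the share was 54.3% over the 5113 genes and 77.6% over those at least as long as sks2. The 7 genes were chosen with earlier results of these data known, so the counts are not a test against these shares. The Pli1 summits belonged to ssa1, ssa2 and sks2 among the Hsp70 genes and to hsp90, and bip1 and hsp104 had no tagged summit. The gene of the mitochondrial Hsp70, ssc1, is not one of the 7, and it had no tagged summit and an untagged score of 317.

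**Figure D1:**
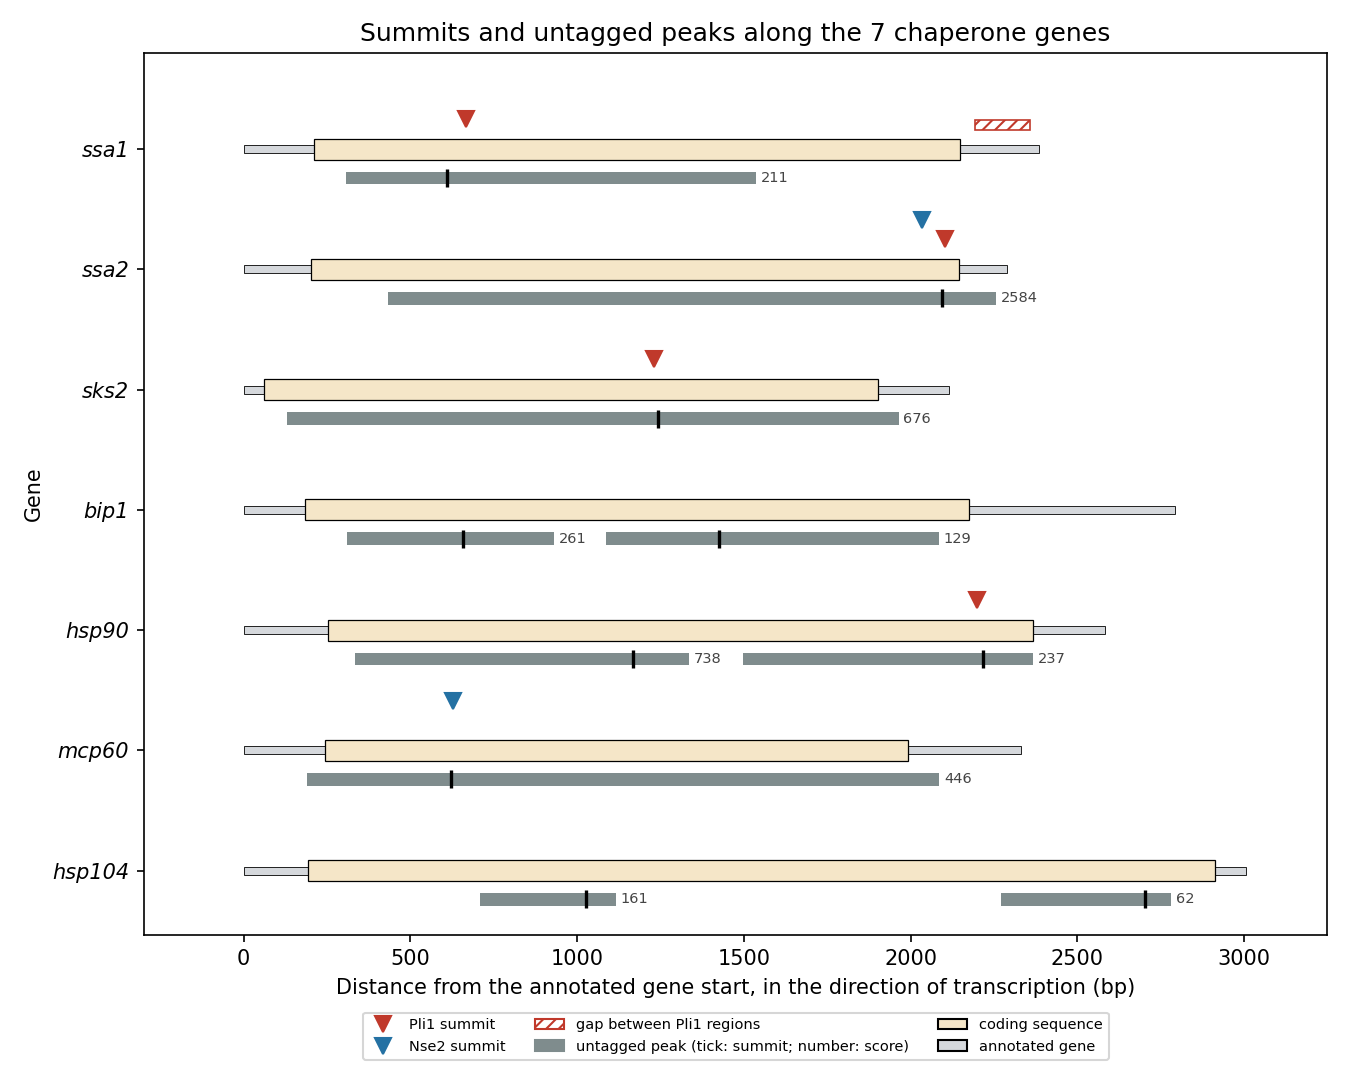
The 7 genes drawn from their annotated start in the direction of transcription (x axis, bp), with the coding sequence as a wide box. Triangles are Pli1 and Nse2 summits, the hatched box is a gap between Pli1 regions, and grey bars are untagged peaks with the summit as a tick and the score as a number: each of the 6 tagged summits sits above an untagged peak.

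The gene ssa2 (SPCC1739.13, chrIII:2057043-2059331, plus strand, 2289 bp) had a summit of every list. Its Pli1 region scored 5228, rank 50 of 299, and was 351192 bp long. Its Nse2 region scored 29073, rank 9 of 62, and was 451815 bp long. Its untagged peak scored 2584, rank 7 of 3535, which was the highest untagged score on any of the 5113 protein-coding genes. The summits lay 2103 bp (Pli1), 2034 bp (Nse2) and 2093 bp (untagged) from the gene start, near the end of the coding sequence. The Pli1 summit was 10 bp and the Nse2 summit 59 bp from the untagged one, and 69 bp separated the tagged pair. Among the summits at the 7 genes, those of ssa2 had the highest score in each list.

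The gene ssa1 (SPAC13G7.02C, chrI:2295580-2297964, minus strand, 2385 bp) codes for a protein 94.1% identical to Ssa2, and the coding sequences are 82.9% identical over 1935 aligned bp. Its Pli1 score was the lowest of the 4 and its highest untagged score the lowest but hsp104. The Pli1 region at its summit scored 1012, rank 269 of 299, and was 2884 bp long, where the median of the list was 28719 bp. Its untagged peak scored 211, rank 957 of 3535. The nearest Nse2 summit was 472576 bp away. The Pli1 summit was 668 bp and the untagged summit 609 bp from the gene start, in the first part of the coding sequence, where ssa2 had its summits in the last part.

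Of the 50-base words of the coding sequence, 7 of 1886 in ssa1 and 7 of 1895 in ssa2 occurred more than once in the nuclear genome, and 0 lay within 150 bp of either untagged summit. In the other 5 genes 0 such words were found. The 3' UTR of ssa1 also held a gap between Pli1 regions, 163 bp long (chrI:2295609-2295771), with a GC content of 30.7% and 0 repeated words. The short Pli1 region with the ssa1 summit is bounded by this gap. The gene ssa1 was the only one of the 7 to contain a gap of either tagged list. The nearest Pli1 gaps to the others were 6239 to 150957 bp away. The part of read mapping in the values of ssa1 and ssa2 was not tested.

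The ribosome-associated Hsp70 gene sks2 (SPBC1709.05, chrII:1106396-1108511, plus strand) had a Pli1 summit in a region of 38952 bp that scored 4071, rank 67 of 299. Its untagged peak scored 676, rank 90 of 3535, and covered 86.6% of the gene. The Pli1 summit lay 11 bp from the untagged one, at 1230 and 1241 bp from the gene start. The Nse2 region over sks2 had its summit 61523 bp away, in the polyubiquitin gene ubi4.

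The Hsp90 gene (SPAC926.04C, chrI:3888558-3891139, minus strand, 2582 bp) carried 2 untagged peaks. The one nearer the gene start scored 738 (rank 66) and the one near the 3' end of the coding sequence 237 (rank 793). The Pli1 summit, in a region of 19234 bp that scored 4246 (rank 62 of 299), lay 19 bp from the summit of the lower untagged peak and 1033 bp from that of the higher. The other genes with a tagged summit had 1 untagged peak each. The nearest Nse2 summit was 11141 bp away, at the non-coding RNA SPNCRNA.944 beside pma1, the gene of the plasma membrane proton pump.

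The chaperonin gene mcp60 (SPAC12G12.04, chrI:339766-342097, minus strand, 2332 bp) had an Nse2 summit but no Pli1 summit. Its Nse2 region of 211147 bp scored 10660, rank 33 of 62, and its untagged peak scored 446, rank 243 of 3535. These summits lay 6 bp apart, at 627 bp (Nse2) and 621 bp (untagged) from the gene start. The nearest Pli1 summit was 494 bp past the 3' end of the gene, in taf9, a gene of the general transcription machinery that runs towards mcp60 and ends 2 bp from it. Of the tagged summits outside the 200 bp window it was the closest to any of the 7 genes, and it lay in an untagged peak with a score of 96.

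The ER chaperone gene bip1 (SPAC22A12.15C, chrI:1182693-1185485, minus strand, 2793 bp) and the disaggregase gene hsp104 (SPBC16D10.08C, chrII:3612265-3615269, minus strand, 3005 bp) had untagged peaks and no tagged summit. Those of bip1 scored 261 (rank 688) and 129 (rank 1768), and those of hsp104 scored 161 (rank 1377) and 62 (rank 2986). The Pli1 region over bip1 scored 16223 (rank 12 of 299), but that score belongs to a summit 32435 bp from the gene. The nearest Pli1 summit to hsp104 lay 3394 bp past its end, in the zinc transporter gene zrt1. The nearest Nse2 summit was 100619 bp from bip1 and 326088 bp from hsp104.

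**Figure D2:**
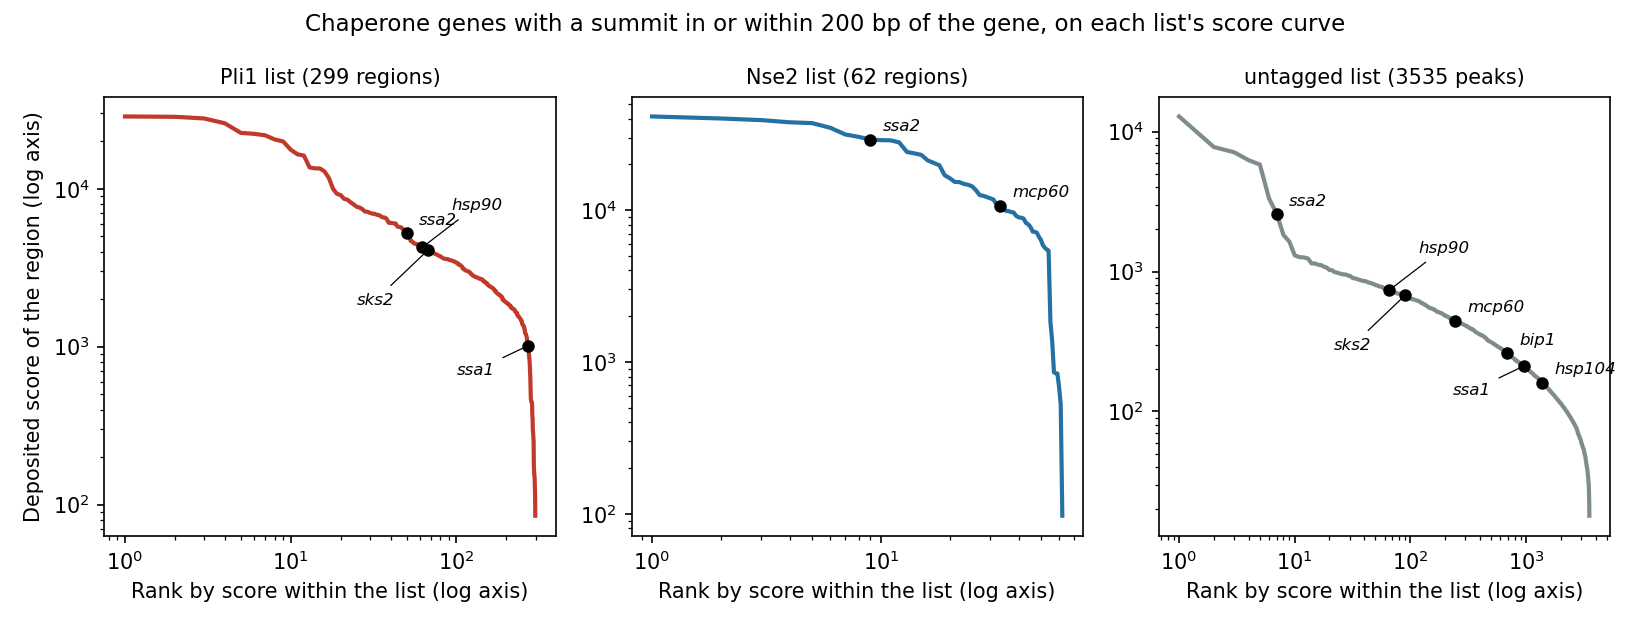
Score (y axis, the authors' score, log axis) against rank (x axis, log axis) for every region of the Pli1, Nse2 and untagged lists, with a point for each chaperone gene whose summit lay in or within 200 bp of it and, for the untagged list, its highest peak. The gene ssa2 holds rank 50, 9 and 7 in the Pli1, Nse2 and untagged lists, and ssa1 rank 269 in the Pli1 list and 957 in the untagged list.

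The order of the 7 genes by their highest untagged score was ssa2 (2584), hsp90 (738), sks2 (676), mcp60 (446), bip1 (261), ssa1 (211) and hsp104 (161). Without replicates, it is not known which neighbours in this order differ. Their median was 446, against 147 for all protein-coding genes that an untagged peak touched. Across all protein-coding genes, the share with a Pli1 summit was 1.97% where there was no untagged peak, 2.31% at untagged scores under 100, 4.44% from 100 to under 200, 7.99% from 200 to under 400 and 24.0% at 400 or more. For Nse2 the shares in the same order were 0.214%, 0.243%, 0.101%, 0.614% and 9.74%. Of the 4 chaperone genes with scores of 400 or more, 3 had a Pli1 summit and 2 an Nse2 summit. Among the 1260 genes with a score of at least 161, the lowest of the 7, the share was 11.1% for Pli1 and 2.78% for Nse2. The part of untagged signal in the counts of 4 and 2 of 7 was not tested.

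**Figure D3:**
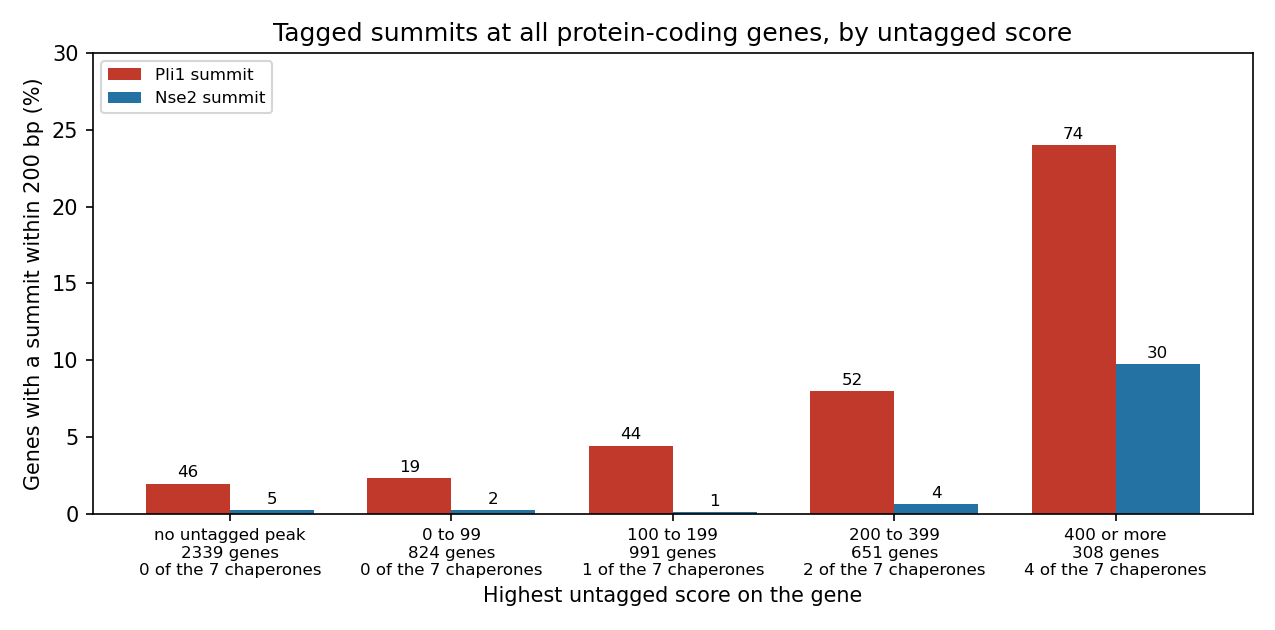
Share of all protein-coding genes with a Pli1 or Nse2 summit within 200 bp (y axis, %), by the highest score of an untagged peak on the gene (x axis), with the number of genes above each bar. Shares reach 24.0% for Pli1 and 9.74% for Nse2 at untagged scores of 400 or more, the class that holds 4 of the 7 chaperone genes.

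All 6 tagged summits at the 7 genes lay inside an untagged peak, 6 to 59 bp from its summit. In the whole lists 168 of 299 Pli1 summits (56.2%) and 41 of 62 Nse2 summits (66.1%) lay inside one. A narrower set was the tagged summits between the first and last coding base, introns included, of genes that an untagged peak touched. Of these, 145 of 158 (91.8%) for Pli1 and 33 of 35 (94.3%) for Nse2 lay inside an untagged peak. Over the whole lists 140 Pli1 summits (46.8%) and 34 Nse2 summits (54.8%) lay at most 100 bp from an untagged summit, as all 6 at the chaperone genes did.

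**Figure D4:**
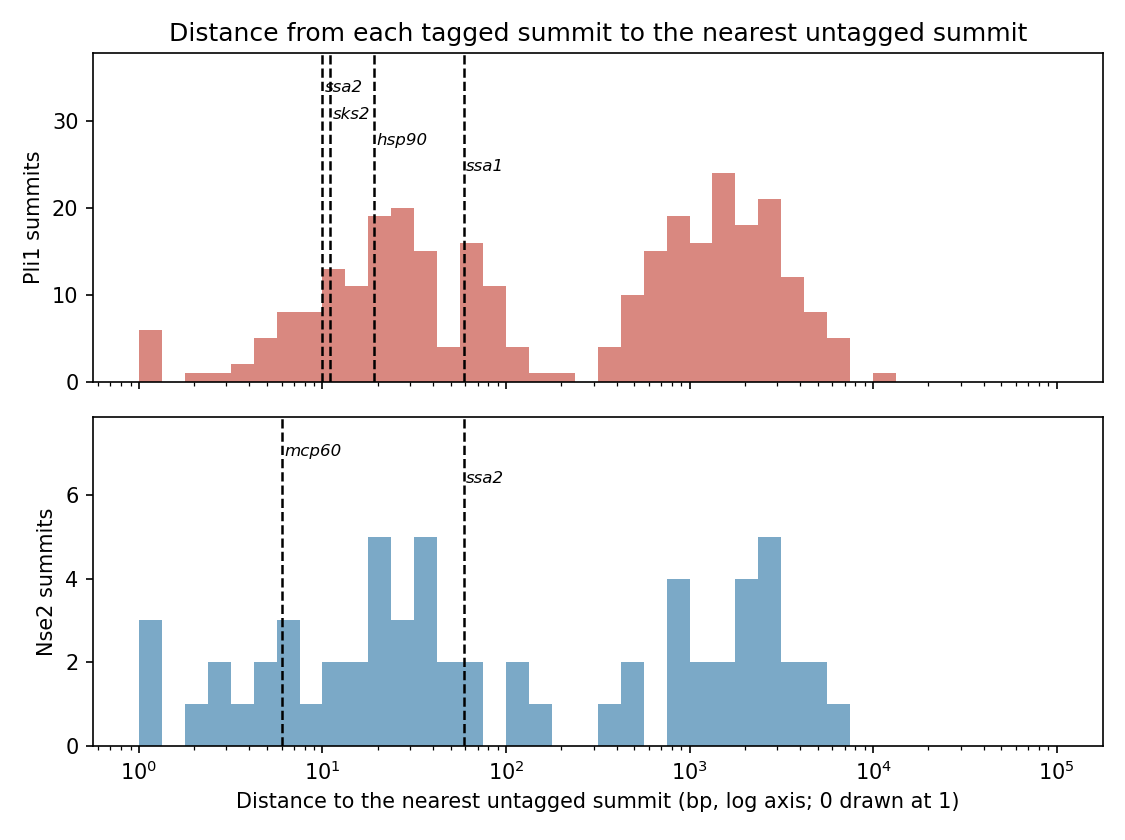
Number of Pli1 summits (top) and Nse2 summits (bottom) by distance to the nearest untagged summit (x axis, bp, log axis), with dashed lines for the summits at named chaperone genes. The chaperone lines run from 6 bp (mcp60, Nse2) to 59 bp (ssa1 for Pli1 and ssa2 for Nse2), all at most 100 bp.

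All 10 untagged summits on the 7 genes were in coding sequence, close to the 96.9% of those on other chaperone genes and the 92.7% of the 3662 counted over all protein-coding genes. The peaks covered 100% of the coding sequence of mcp60, 96.2% of that of sks2, 88.6% for hsp90, 88.0% for ssa2, 81.4% for bip1, 63.5% for ssa1 and 33.7% for hsp104. Of the whole gene, the median share covered was 72.6%, against 35.6% over the protein-coding genes that an untagged peak touched and 15.0% over all of them, and hsp104 had 30.5%. The first covered base was 131 to 710 bp from the gene start. The 5' UTR was covered in mcp60 alone, over 53 of 242 bp, and no peak ran past the 3' end of a gene. The 250 bp before the gene start held an untagged peak at 0 of the 7 genes, against 1.35% of all protein-coding genes.

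These peaks were long. They measured 406 to 1896 bp, and their median was 1001 bp where that of the list was 559 bp. Of the 10, 5 reached 1 kb, against 14.3% of the list. The single peaks of mcp60 (1896 bp), sks2 (1833 bp) and ssa2 (1823 bp) ranked 45, 51 and 53 of 3535 by length. Each of the 7 coding sequences is uninterrupted by introns, and they run from 1749 bp (mcp60) to 2718 bp (hsp104). The peaks of hsp104 measured 406 and 511 bp. Coding GC content was 42.2% (bip1) to 49.6% (ssa2), against a median of 39.6% over all protein-coding genes. In the 500 bp around the summit, 9 of the 10 peaks had more GC than the list's median of 41.3%, several by little. The 10 ran from 39.9% (lower hsp104 peak) to 48.9% (sks2). Their median was 42.6%, inside the list's quartiles of 39.5% and 43.3%. The part of length and base composition in the calls was not tested.

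Overlapping genes limit what a summit can be assigned to. The annotated start of ssa2 overlaps the end of ppe1, and that of mcp60 the end of cip2. The untagged peaks began 434 bp (ssa2) and 190 bp (mcp60) from the gene start, and the lengths of the overlaps are not given here. No summit at ssa2 or mcp60 lay in ppe1 or cip2. Non-coding RNA genes overlap 6 of the 7 genes, all but hsp90. The summits of ssa1 and mcp60 lay in such RNA genes too, SPNCRNA.3030 and SPNCRNA.639. For bip1 and hsp104, only the summit of the lower-scoring untagged peak was looked up in this way. The other neighbours were upf3 and erg7 for ssa1, cdc11 and npp106 for ssa2, cyp3 and dus2 for sks2, SPAC22A12.17C and SPAC22A12.14C for bip1, dph4 and rlc1 for hsp90, efg1 and taf9 for mcp60, and pcn1 and sir2 for hsp104.

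Heat shock elements were searched in the promoters because heat shock factor binds such elements in heat shock genes. The motif was GAANNTTCNNGAA or TTCNNGAANNTTC, read on either strand, from 250 bp before to 50 bp after the gene start. Of the 7 promoters, those of ssa1 and ssa2 held a match, where 24 of the 5113 genes had one (0.469%). The stretches are shown in the direction of transcription with the motif in capitals. They lie 66 to 38 bp before the start of ssa1 (chrI:2298002-2298030, minus strand) and 67 to 39 bp before that of ssa2 (chrIII:2056976-2057004, plus strand). The ssa2 match lies inside the annotated end of ppe1.
ssa1: gggttggtGAAGGTTCGAGAAtggacaaa
ssa2: ggttttggGAAACTTCGAGAAccgtagcc
No summit of any list lay within these promoter windows. The nearest summits in ssa1 and ssa2 were 609 and 2034 bp inside the gene.

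Other chaperone genes were taken from a list of 43 symbols for partners of Hsp70 and Hsp90, chaperonins, small heat shock proteins and regulators, of which 42 were found. Pli1 summits lay at 2 of the 42 (4.76%, beside the 4.6% of all genes): pss1 and ubi4. An Nse2 summit lay at 1, again ubi4. The gene pss1 codes for an Hsp110, an Hsp70 relative that recharges it. Its Pli1 region scored 2698 (rank 137) with the summit on the very base of an untagged summit (score 548, rank 148). The gene ubi4 codes for polyubiquitin, and its Pli1 region scored 9116 (rank 20 of 299) and its Nse2 region 15270 (rank 22 of 62). Its untagged peak scored 594 (rank 128 of 3535). The Pli1 summit at ubi4 lay 21 bp from the untagged one and the Nse2 summit 137 bp from it.

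Untagged peaks touched 27 of the 42 other chaperone genes (64.3%, beside 54.3%), with a median score of 252. By role the counts were 10 of 13 for ssc1 and the Hsp70 partners, 8 of 9 for chaperonins, 3 of 7 for Hsp90 partners, 2 of 5 for the DJ-1 family, 1 of 2 for ER folding genes and 0 of 3 for small heat shock proteins. The disaggregase gene hsp78, the heat shock factor gene hsf1 and ubi4 were touched. The highest scores were at psi1 (932), a J-domain partner of Hsp70, aha1 (808) and sti1 (648), both Hsp90 cochaperones, cct4 (615), a subunit of the cytosolic chaperonin, and ubi4 (594). Of these 5, only ubi4 had a tagged summit. The 15 genes without an untagged peak had a median length of 1256 bp, shorter than the 2008 bp of the 27 with one, and the small heat shock protein genes hsp16, hsp20 and hsp9 measured 720 to 1022 bp.

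Only 25 of 5113 protein-coding genes had summits of all 3 lists within 200 bp, ssa2 among them. The 5 nearest to it by rank of their highest untagged peak (ssa2 rank 7) were rps1001 (rank 11), aar2 and rps1401 (rank 19, which overlap and share the peak), eno101 (rank 20) and rps1402 (rank 23). Likeness here is the difference in rank within the untagged list, over 3 lists of 1 library each. The genes rps1001, rps1401 and rps1402 code for proteins of the small ribosomal subunit, eno101 for the glycolytic enzyme enolase, and aar2 for a splicing factor. Within the Nse2 list eno101 scored 30303 (rank 8), next to ssa2 with 29073 (rank 9), and the other four genes scored 9893 to 12395 (ranks 28 to 35).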

How the data were processed

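ChIP and input libraries of 3 strains were sequenced, and the 3 lists of called ChIP regions were analysed. The input libraries were not analysed here. MACS3, SAMtools, Bowtie2 and cutadapt are listed in the submitters' processing notes with no version or role, beside the build sacCer3 of the calibrator organism. Per the file headers, the lists rest on unique S. pombe alignments and a p-value. Per the labels, signal was ChIP over input, normalised to the calibrator; whether the lists include that step is not stated. The deposited unit is the authors' score, a whole number per region, and 3 further columns hold 0 throughout. Summits are deposited as offsets within a region. Sequence names and versions match RefSeq ASM294v3, which gave genes and sequences.

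Overlaps, summits, motifs, repeated 50-base words and GC content were computed with Python 3.11.15, NumPy 2.4.6 and pandas 2.3.3, alignments with Biopython 1.88, and figures with Matplotlib 3.10.9. Functions for overlap, summit window and coverage were tested on simulated peaks. The separate code that counted genes and shares was not part of that test. A summit counted for a gene within 200 bp of it. The genes and gene lists were chosen with earlier results of these data known. The symbol lhs1 was not matched. Named genes were the 7 genes and their neighbours, other chaperone genes with a tagged summit or among the 5 highest untagged scores, and the 5 genes most like ssa2. Genes named at distant summits, ssc1, hsp78, hsf1, the small heat shock protein genes and 2 further promoters with a motif were chosen after their values were seen. The alternatives in the closing section changed the window, gene extent, merging, score minimum, overlap, promoter length and motif.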

Additional observations from a re-analysis of the deposited data

How the results depend on the processing

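No pairing across replicates was possible because each strain had 1 ChIP library, and ChIP was not paired with input because the inputs were not analysed. Of 31 alternative counts, 26 stayed within 1.5 times the reported count and 22 were equal to it. Merging regions within 500 bp turned 299 Pli1 regions into 30 and 62 Nse2 regions into 17, each with 1 summit, and by that construction the chaperone genes with a Pli1 summit numbered 0 in place of 4, those with an Nse2 summit 0 in place of 2, and other chaperone genes with a Pli1 summit 1 in place of 2. The share of all protein-coding genes was then 0.293% for Pli1 and 0.176% for Nse2, against 4.6% and 0.821% as reported. With at least 50% of the gene covered, untagged peaks took in 10 rather than 27 of the 42 other chaperone genes and 6 of the 7, beside 13.3% of all protein-coding genes in place of 54.3%. A motif of 2 units was found in 5 rather than 2 of the 7 promoters, and in 19.9% of all promoters. Without the rDNA-bearing ends of chromosome III (30 kb each), an alternative chosen after seeing the data that leaves fewer regions to rank, ssa2 ranked 35 (reported 50) in the Pli1 list, 6 (reported 9) in the Nse2 list and 1 (reported 7) in the untagged list. A window of 500 bp added mcp60 to the Pli1 count, making 5, beside 5.85% of all genes. With 1 library per strain and no depths, no error can be put on a score or a summit position.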

Other observations

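The 110 bp printed for ssa2 had a GC content of 64.5% and held 3 copies of GCTCCTGGTGCT in direct succession, with no bases between them. That length follows from the places of the ssa2 summits. In 110 bp centred on the untagged summit the content was 61.8%, beside a median of 42.7% for the untagged list. By this measure ssa2 took place 2 of 3535 in the list. Over 500 bp around the same summit the content was 41.7%, beside a median of 41.3% for the list. The matching stretch of ssa1 (chrI:2295840-2295940, minus strand) is shown with the bases that differ from ssa2 in capitals.
ssa1: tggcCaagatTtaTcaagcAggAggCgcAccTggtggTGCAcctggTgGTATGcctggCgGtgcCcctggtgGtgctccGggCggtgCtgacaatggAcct
It has a GC content of 63.4%, and 75 of its 101 aligned bases match ssa2. A further 9 bases of the ssa2 stretch have no counterpart in ssa1, and the capitals do not mark them. The untagged peak of ssa1 ended 1535 bp from the gene start, before this stretch. The stretch of ssa2 that matches the ssa1 summits (chrIII:2057620-2057719, 78.0% identical) lay inside the long untagged peak of ssa2 but held no summit. The cause was not tested.

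The promoters of wis2, a cyclophilin gene whose product works with Hsp90, and of cnx1, the calnexin gene of the ER, also held the 3-unit heat shock element. Of these, cnx1 had an untagged peak with a score of 74 and wis2 had none.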
